A study of Mus musculus with 12 samples.

Results

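The 42 genes described here encode the proteins that license, unwind and copy the genome in S phase, the enzymes that supply its nucleotides and the cyclins and E2F1 that open the G1/S transition. They were taken as a named list, and 41 of them had a probe set of their own among 17097 genes measured. Chaf1a, the large subunit of chromatin assembly factor 1, was not analysed here. Basal epidermal cells were sorted from the tail skin of adult CD1 mice at D4 and D7 after a wound of 3 mm. The leading edge (LE) came from a punch of 4 mm around the wound, the proliferative hub from a second, wider punch of 6 mm, and control skin from far away, so the wound groups are enriched for a region and not pure. The labels give no transgene and no treatment other than the wound, and 5 mice were pooled per sample. From each pool 300 living cells, positive for α6-integrin and negative for CD34, were sorted and their amplified cDNA hybridized to Affymetrix mouse arrays. There were 2 arrays for each of 6 groups. They are biological replicates by their labels, but separate pools are not stated, so each p measures the spread between these arrays only.

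In each cell cycle the origin recognition complex, Cdc6 and Cdt1 load the Mcm2-7 ring on DNA in G1, and geminin blocks Cdt1 once S phase has begun. Cyclin-dependent and Dbf4-dependent kinases, Mcm10, Cdc45 and the GINS complex then turn the ring into a moving helicase, behind which primase and the replicative polymerases work. Most of these genes are transcribed at the G1/S transition through E2F factors, and in epidermis they mark the cycling part of the basal layer.

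All values are deposited log2 intensities after RMA, so a difference of 1 is 2-fold, and ± gives the SE of a difference. A gene was called when its adjusted p was under 0.05 in one limma fit of the 6 groups (Benjamini-Hochberg over all 17097 genes). The array medians were 5.4 to 5.47 at D4 and 4.25 to 4.28 at D7, and regions were therefore compared within a day only. All 6 basal keratinocyte markers lay above the array median on every array, with Itga6 at 10.11 to 11.72, and Cd34 was at 3.08 to 4.94. Of 6 suprabasal markers, 4 or 5 also lay above it on each array, with Krt1 at 11.02 to 12.28 and Krt10 at 10.98 to 12. So did all 4 infundibulum markers and 1 or 2 of 4 bulge markers, with Krt15 at 7.26 to 10.52. Of 7 immune and 6 fibroblast markers, 0 or 1 did. At D4 Krt15 read 7.26 and 8.31 in the LE and 10.01 and 10.52 in control skin. At D7 it read 7.67 and 8.09 against 9.82 and 9.69. Dcn, a fibroblast marker, read 7.37 and 5.38 in the LE and 7.76 and 8.17 in control skin at D4. Its D7 values were 3.79 and 4.07 against 6.45 and 6.6. The median LE minus control difference at D4 and D7 was 0.23 and -0.52 over the bulge markers and -0.03 and -0.11 over the fibroblast markers. Of 5 melanocyte markers, 5 lay above the array median in hub D4 replicate 2 and 4 in control D4 replicate 1, against 0 or 1 on the other arrays. Their mean level was 8.39 and 7.11 on those arrays and 5.1 to 5.38 on the other D4 arrays. The mean of 6 endothelial markers was 5.29 to 5.46 in the LE at D7, 4.29 to 4.57 in the hub and 4.37 to 4.68 in control skin, and at D4 it ranged from 5.3 to 6.5 with both ends in control skin. Of the 6 endothelial markers, 3 lay above the array median on each LE D7 array, 1 or 2 on the hub arrays and 2 on the control arrays, with Cdh5 at 6.88 and 6.70 in the LE and 4.65 and 4.87 in control skin. No member belongs to these marker lists, and the part of such cells in the results below was not tested. In samples of this kind, fewer cycling cells and less RNA per cycling cell cannot be told apart.

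Promoter sequence was available for 33 of the 41 members in the RefSeq table (GRCm38.p6), as windows from 250 bases before to 50 bases after the start of transcription. Windows of the called members of the licensing and helicase groups that hold an E2F word are shown first, to set the genes of the Mcm ring and its loading beside their calls below. The windows of Mcm2 and Mcm10, called as well, held no E2F word and are not shown. Gmnn, Mcm4, Gins1 and Gins2, also called, had no window to search. Capitals mark each match on either strand to the 4 words TTTCCCGC, TTTCGCGC, TTTGCCGC and TTTGGCGC, which are forms of the E2F site, and adjoining capitals can be 2 words that overlap.
Orc1, chr4:108579204-108579503, plus strand: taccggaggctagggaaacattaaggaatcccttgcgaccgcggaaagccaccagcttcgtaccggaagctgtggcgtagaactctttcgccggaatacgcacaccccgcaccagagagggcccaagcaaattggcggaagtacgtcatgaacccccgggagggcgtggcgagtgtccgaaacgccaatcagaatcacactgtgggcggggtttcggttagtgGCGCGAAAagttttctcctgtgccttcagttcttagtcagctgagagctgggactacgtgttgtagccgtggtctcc
Cdt1, chr8:122567765-122568064, plus strand: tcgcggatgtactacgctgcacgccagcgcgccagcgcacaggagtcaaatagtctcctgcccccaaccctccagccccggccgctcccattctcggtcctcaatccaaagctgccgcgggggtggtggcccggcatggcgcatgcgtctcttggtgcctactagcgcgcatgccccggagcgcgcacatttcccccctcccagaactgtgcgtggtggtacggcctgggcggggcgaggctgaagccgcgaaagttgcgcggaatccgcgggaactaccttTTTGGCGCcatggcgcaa
Mcm3, chr1:20820263-20820562, minus strand: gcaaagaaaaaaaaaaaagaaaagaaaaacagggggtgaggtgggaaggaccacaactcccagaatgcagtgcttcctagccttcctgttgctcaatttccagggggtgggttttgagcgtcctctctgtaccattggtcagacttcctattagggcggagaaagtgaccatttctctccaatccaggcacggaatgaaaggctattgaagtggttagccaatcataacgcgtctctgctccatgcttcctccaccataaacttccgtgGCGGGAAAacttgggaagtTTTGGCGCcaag
Mcm5, chr8:75109259-75109558, plus strand: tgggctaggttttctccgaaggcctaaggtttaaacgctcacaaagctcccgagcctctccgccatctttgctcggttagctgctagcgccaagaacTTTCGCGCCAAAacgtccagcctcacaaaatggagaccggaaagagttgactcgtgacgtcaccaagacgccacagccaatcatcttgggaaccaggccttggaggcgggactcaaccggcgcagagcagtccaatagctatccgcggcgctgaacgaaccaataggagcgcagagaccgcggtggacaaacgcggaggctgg
Mcm6, chr1:128359656-128359955, minus strand: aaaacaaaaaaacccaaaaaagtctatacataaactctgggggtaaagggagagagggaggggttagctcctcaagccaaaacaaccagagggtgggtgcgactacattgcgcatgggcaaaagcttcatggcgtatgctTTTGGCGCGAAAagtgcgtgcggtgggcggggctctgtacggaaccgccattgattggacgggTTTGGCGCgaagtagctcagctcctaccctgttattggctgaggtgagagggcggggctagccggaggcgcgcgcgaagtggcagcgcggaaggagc
Mcm7, chr5:138171834-138172133, minus strand: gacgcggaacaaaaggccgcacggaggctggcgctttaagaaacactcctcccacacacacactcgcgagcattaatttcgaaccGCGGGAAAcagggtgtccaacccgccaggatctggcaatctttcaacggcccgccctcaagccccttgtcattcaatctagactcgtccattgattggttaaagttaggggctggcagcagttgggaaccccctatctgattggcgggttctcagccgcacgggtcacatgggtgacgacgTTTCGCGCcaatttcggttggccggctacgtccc
The window of Rrm2, the member with the most calls, held no E2F word, and here the capitals mark its single match to CCAAT on either strand, the box bound by NF-Y.
Rrm2, chr12:24708004-24708303, plus strand: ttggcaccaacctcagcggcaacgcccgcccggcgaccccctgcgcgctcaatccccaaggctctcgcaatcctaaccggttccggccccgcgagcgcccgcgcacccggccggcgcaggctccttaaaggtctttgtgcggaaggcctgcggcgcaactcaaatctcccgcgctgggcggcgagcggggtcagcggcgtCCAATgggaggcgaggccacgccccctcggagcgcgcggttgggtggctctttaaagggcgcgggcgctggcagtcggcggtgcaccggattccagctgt

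An E2F word stood in the window of 12 of the 33 members (36.4%), against 515 of 13605 genes measured (3.79%) and 1 of 25 G2/M and mitosis genes (4.0%). The 12 were Orc1, Cdc6, Cdt1, Mcm3, Mcm5, Mcm6, Mcm7, Pola1, Pold1, Rfc3, Lig1 and Uhrf1. Mcm6 held 3 matches, and Mcm3, Mcm5, Mcm7 and Rfc3 held 2 each. The 33 members had 38 windows, 4 members had several, and a gene counted when any of its windows held a match. Mcm7, Lig1 and Uhrf1 each had a further window without an E2F word. By window the share was 31.6% for members and 3.19% for genes measured. Of the 17 members that were called in any comparison, 12 had a window and 7 of those an E2F word. Mcm2, Mcm10, Prim1, Rpa2 and Rrm2 were called and had a window without an E2F word. Of the 24 members without a call, 21 had a window and 5 an E2F word. CCAAT stood in the windows of 11 of the 12 called members and of 7 of the 21 others. Over all members its share was 54.5%, against 42.3% of genes measured and 88.0% of the G2/M genes. The cell cycle homology region of mitotic promoters, searched as TTTGAA and TTCGAA on both strands, was in 15.2% of the members, 17.5% of genes measured and 84.0% of the G2/M genes. In the 150 bases nearest the 3′ end of the window the share with an E2F word was 24.2% for members and 2.07% for genes measured. A match describes these letters in these windows only, and 8 members with no window are not counted. They were Gmnn, Mcm4, Gins1, Gins2, Prim2, Pole, Ccne2 and Ccnd1.

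**Figure D1:**
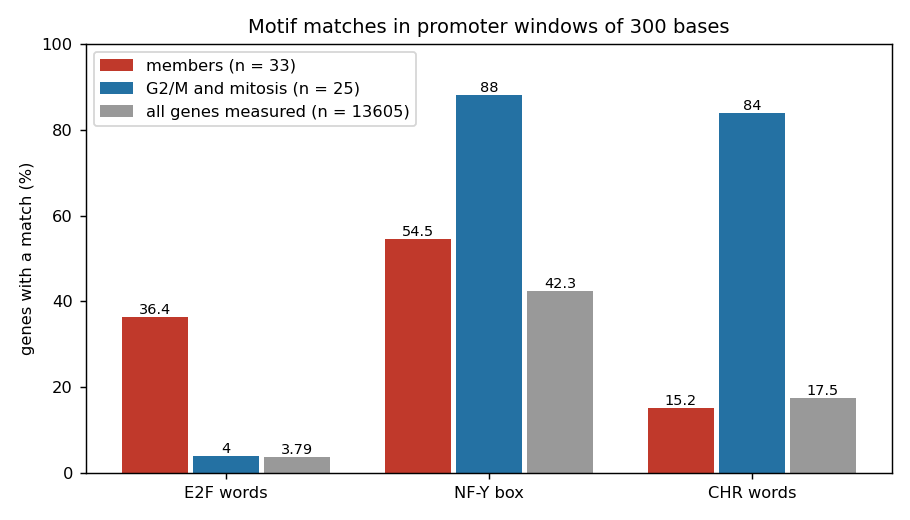
Share of genes (%) with a match to the E2F words, the NF-Y box or the cell cycle homology region (CHR) words in any promoter window of 300 bases. Shown are the members (n = 33), the G2/M and mitosis list (n = 25) and all genes measured with a window (n = 13605). The members stand at 36.4% for the E2F words and 15.2% for the CHR words, where the G2/M list stands at 4.0% and 84.0%.

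Part of the replication genes were called higher in the LE against control skin, and in the hub a single one, Rrm2, was called. In the LE at D4, 12 of the 41 members were called higher and 0 lower, where 8.3% of all genes were called higher. At D7 it was 14 members higher and 0 lower, with 9.25% of all genes called higher. The hub gave 1 call at D4 (0.222% of all genes) and 1 at D7 (0.591%), both Rrm2. The members had a median difference of 0.41 for the LE and 0.54 for the hub at D4, and of 0.38 and 0.28 at D7, while the median over all genes was 0.01 to 0.03. At D4 the hub thus had the larger median with 1 call, and the LE the smaller median with 12. Both regions share the control arrays of the day, so their differences are not independent of each other.

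Without the correction over all genes the hub had more members past the threshold than the LE at D4 and fewer at D7. At an unadjusted p under 0.05, 19 members were higher in the LE at D4 (15.1% of all genes) and 30 in the hub (6.9%). At D7 the numbers were 23 in the LE (16.5%) and 14 in the hub (8.28%). Both arrays of the LE lay above both control arrays for 27 members at D4 (29.2% of all genes) and 32 at D7 (31.5%). For the hub this held for 35 members at D4 (21.2%) and 22 at D7 (25.8%). The sign of the difference was positive in 40 of 41 members in the LE at D4 (Rfc3 was at -0.02) and in 40 at D7 (E2f1 was at -0.15). In the hub it was positive in 41 of 41 at D4 and 37 of 41 at D7. Over all genes it was positive in 56.4% at D4 and 54.2% at D7 for the LE, and in 51.5% and 54.5% for the hub. With 2 arrays against 2, an exact permutation test of a single gene cannot go below p = 0.333, and the calls rest on the spread shared by the fit. Without LE D4 replicate 2 the 12 calls at D4 fell to 4, and without control D4 replicate 2 to 3. The 14 calls at D7 fell to 4 without LE D7 replicate 1, 9 without LE D7 replicate 2 and 5 without control D7 replicate 2.

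**Figure D2:**
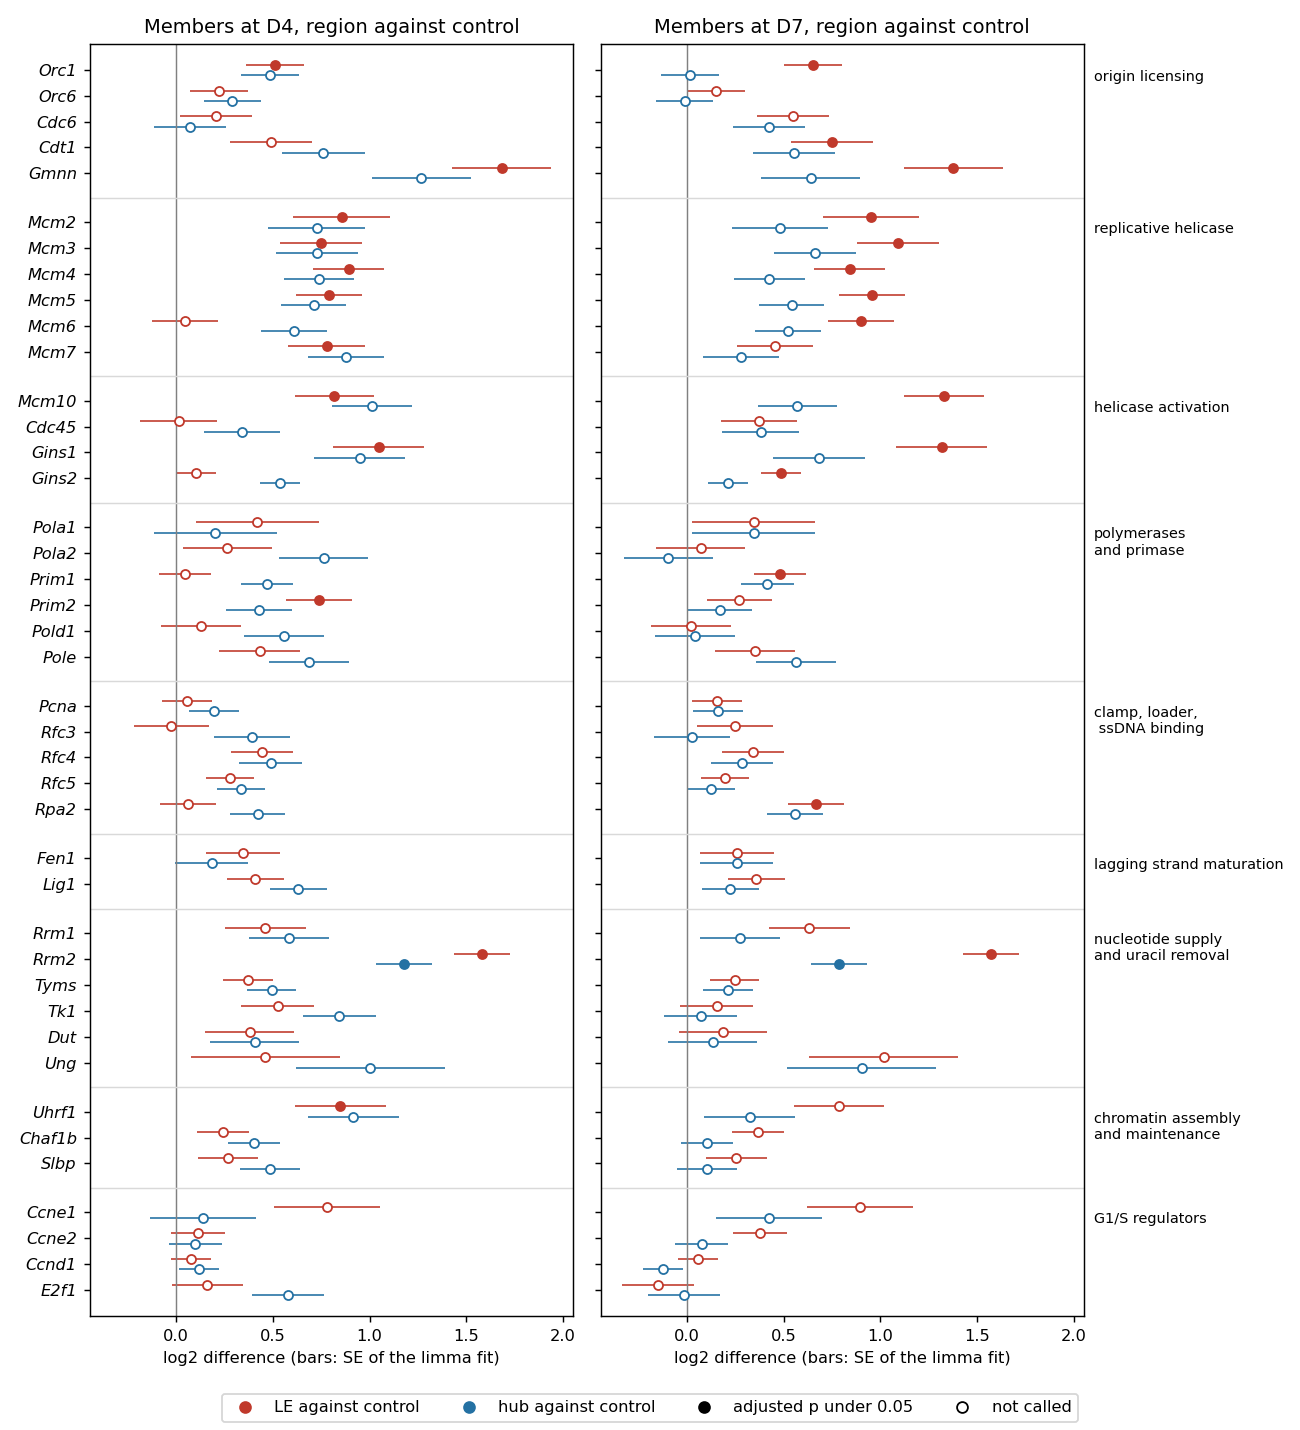
Difference from same-day control skin (log2, x axis) for each of the 41 members (y axis, grouped by role) at D4 and D7, in the LE and the proliferative hub. Points are differences of group means of 2 arrays and bars the SE of the limma fit. Filled points were called. Gmnn and Rrm2 stand farthest to the right in the LE at D4, and the LE points of Mcm2 to Mcm7 lie at 0.75 to 1.09, apart from Mcm6 at D4 and Mcm7 at D7.

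The gene with the most calls was Rrm2, the small, cell cycle-limited subunit of ribonucleotide reductase, which makes deoxyribonucleotides. At D4 its level was 11.09 and 10.90 in the LE, 10.76 and 10.43 in the hub and 9.44 and 9.38 in control skin. At D7 it was 10.30 and 10.30 in the LE, 9.65 and 9.38 in the hub and 8.83 and 8.63 in control skin. On both days the groups stood in the order LE, hub, control with no overlap. The LE exceeded control by 1.58 ± 0.14 (adjusted p = 0.00014) at D4, which is 2.99-fold, and by 1.57 ± 0.14 (adjusted p = 0.000188) at D7. The hub exceeded control by 1.18 ± 0.14 (adjusted p = 0.0158) at D4, followed by 0.78 ± 0.14 (adjusted p = 0.0457) at D7. The hub call at D7 did not hold in 10 of the 12 fits that left out 1 array, with adjusted p up to 0.229, while both LE calls held in all 12. For a second probe set of Rrm2 the LE differences were 1.87 and 1.52 and those of the hub 1.36 and 0.76. The large subunit, Rrm1, was not called, at 0.46 ± 0.21 (adjusted p = 0.199) in the LE at D4, followed by 0.63 ± 0.21 (adjusted p = 0.0725) at D7.

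Other members of the nucleotide group were not called in any comparison. Ung, the uracil glycosylase that clears uracil from new DNA, had the largest difference in the hub at D7. Its level there was 8.12 and 7.7 in the LE, 7.66 and 7.93 in the hub and 7.16 and 6.62 in control skin, with the hub above control on both arrays and a difference of 0.90 ± 0.39 (adjusted p = 0.368). At D4 it was 7.87 and 8.81 in the LE, 9.26 and 8.51 in the hub and 8.32 and 7.44 in control skin, and its SE was the largest among the members. Tyms, Tk1 and Dut, which make thymidylate, salvage thymidine and remove dUTP, had differences of 0.15 to 0.53 in the LE over the days and 0.07 to 0.84 in the hub, the largest being Tk1 in the hub at D4.

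In the licensing group Gmnn, which encodes geminin, moved most. It lay at 7.36 and 7.9 in the LE, 7.28 and 7.14 in the hub and 5.65 and 6.24 in control skin at D4. At D7 the values were 7.03 and 6.73 in the LE, 6.17 and 6.12 in the hub and 5.81 and 5.2 in control skin. All LE and hub arrays of a day lay above its control arrays. In the LE the difference was 1.68 ± 0.26 (adjusted p = 0.00211) at D4, or 3.21-fold, and 1.38 ± 0.26 (adjusted p = 0.00639) at D7. The hub exceeded control by 1.27 ± 0.26 (adjusted p = 0.0865) at D4, the largest of any member there, and 0.64 ± 0.26 (adjusted p = 0.327) at D7.

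Orc1 and Cdt1, an origin-binding subunit and the loader of the Mcm ring, were called in the LE. Orc1 was measured at 5.26 and 4.98 in the LE, 5.07 and 5.12 in the hub and 4.8 and 4.42 in control skin at D4. At D7 its LE arrays read 4.35 and 4.59 and its hub and control arrays 3.81 to 3.86. The LE difference was 0.51 ± 0.15 (adjusted p = 0.0483) at D4, followed by 0.65 ± 0.15 (adjusted p = 0.0177) at D7, and the probe set was among those that a filter on dim genes would remove. For Cdt1 the D7 values were 9.08 and 8.89 in the LE, 8.63 and 8.95 in the hub and 8.37 and 8.1 in control skin. They gave 0.75 ± 0.21 (adjusted p = 0.0431) for the LE and 0.55 ± 0.21 (adjusted p = 0.308) for the hub. At D4 Cdt1 read 9.4 and 9.78 in the LE, 10.11 and 9.61 in the hub and 9.28 and 8.91 in control skin, and the hub difference of 0.76 was above that of the LE, 0.49, with neither called. Orc6 and Cdc6 were not called, with differences of -0.01 to 0.55 in the 4 comparisons with control. The Cdc6 probe set was dim, at percentile 18.5 of the genes by mean level, so a change could be missed.

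The Mcm2-7 ring gave 5 calls of 6 in the LE at D4 (8.3% of all genes called higher) and 5 of 6 at D7 (9.25%). Mcm5 read 11.28 and 11.44 in the LE, 11.34 and 11.22 in the hub and 10.74 and 10.40 in control skin at D4. Its D7 levels were 10.28 and 10.09 in the LE, 9.68 and 9.85 in the hub and 9.45 and 9.01 in control skin. Its arrays did not overlap between control and either region, and the LE difference was 0.79 ± 0.17 (adjusted p = 0.0125) at D4, followed by 0.96 ± 0.17 (adjusted p = 0.00509) at D7. For Mcm4 the LE arrays were 8.77 and 9.21 at D4 and 8.41 and 8.33 at D7, the hub arrays 9.08 and 8.6 and then 7.87 and 8.03, and the control arrays 8.18 and 8.02 and then 7.59 and 7.46. Again control lay below both regions on each day, by 0.89 ± 0.18 (adjusted p = 0.0101) for the LE at D4, followed by 0.84 ± 0.18 (adjusted p = 0.0134) at D7.

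Mcm2 and Mcm3 repeated the pattern with wider replicates. Mcm2 stood at 8.98 and 9.52 in the LE, 9.19 and 9.06 in the hub and 8.58 and 8.22 in control skin at D4. Its D7 values were 8.59 and 8.29 in the LE, 7.76 and 8.17 in the hub and 7.79 and 7.18 in control skin, and the lower hub array lay just below the higher control array. The LE exceeded control by 0.86 ± 0.25 (adjusted p = 0.0478) and then 0.95 ± 0.25 (adjusted p = 0.0307). The D4 call of Mcm2 was lost with the probe set of highest variance. Mcm3 stood at 10.00 and 10.03 in the LE, 10.16 and 9.82 in the hub and 9.52 and 9.01 in control skin at D4. Its D7 values were 9.17 and 8.98 in the LE, 8.62 and 8.68 in the hub and 8.27 and 7.7 in control skin, and control was below the regions on both days. The LE differences were 0.75 ± 0.21 (adjusted p = 0.0426) at D4, followed by 1.09 ± 0.21 (adjusted p = 0.00789), or 2.13-fold, at D7.

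Mcm6 and Mcm7 were each called on 1 day. Mcm6 at D4 was at 7.9 and 8.28 in the LE, 8.74 and 8.55 in the hub and 8.23 and 7.86 in control skin, so the LE overlapped control and the hub lay above both. At D7 it was at 7.38 and 7.39 in the LE, 7.13 and 6.88 in the hub and 6.38 and 6.59 in control skin, with the LE highest. The LE difference was 0.05 ± 0.17 (adjusted p = 0.927) at D4, followed by 0.90 ± 0.17 (adjusted p = 0.00716) at D7. Mcm7 at D4 was at 8.52 and 8.76 in the LE, 8.93 and 8.55 in the hub and 8.13 and 7.6 in control skin, and its LE difference was 0.78 ± 0.20 (adjusted p = 0.0262). At D7 it was at 7.59 and 7.67 in the LE, 7.4 and 7.5 in the hub and 7.34 and 7.01 in control skin, a difference of 0.46 ± 0.20 (adjusted p = 0.169). A second probe set of Mcm7 had the opposite pattern of calls, at 0.61 at D4 (adjusted p = 0.0967 over all probe sets) and 0.84 at D7 (adjusted p = 0.0278).

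**Figure D3:**
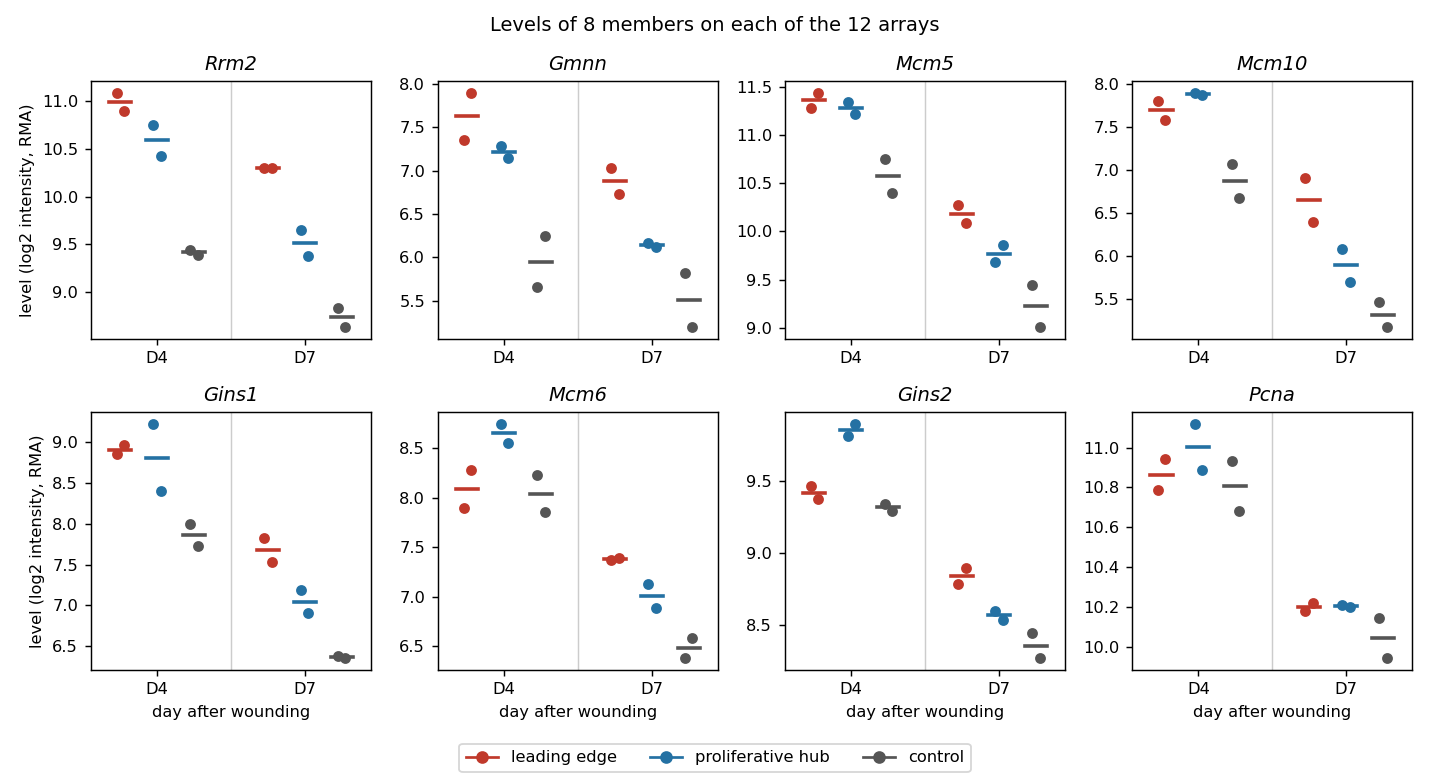
Level (log2 intensity after RMA, y axis, scaled per gene) of 8 members on each of the 12 arrays at D4 and D7 after wounding. Points are arrays and short lines the mean of the 2 arrays of a group. Rrm2 falls from LE to hub to control on both days, Mcm6 and Gins2 are highest in the hub at D4 and in the LE at D7, and the groups of Pcna overlap at D4.

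Of the factors that activate the helicase, Mcm10 and Gins1 were called in the LE on both days. Mcm10 read 7.8 and 7.58 in the LE, 7.9 and 7.87 in the hub and 7.07 and 6.68 in control skin at D4. At D7 it read 6.91 and 6.4 in the LE, 6.08 and 5.71 in the hub and 5.47 and 5.18 in control skin. The LE and hub were both above control at D4, and at D7 the LE was highest. Its LE difference was 0.82 ± 0.21 (adjusted p = 0.0253) at D4, followed by 1.33 ± 0.21 (adjusted p = 0.00263), or 2.51-fold, at D7. Gins1, a GINS subunit, read 8.85 and 8.97 in the LE, 9.23 and 8.4 in the hub and 8.0 and 7.73 in control skin at D4. Its D7 values were 7.82 and 7.54 in the LE, 7.19 and 6.9 in the hub and 6.38 and 6.35 in control skin, in the order LE, hub, control. The LE difference was 1.05 ± 0.24 (adjusted p = 0.0158) at D4, followed by 1.32 ± 0.24 (adjusted p = 0.00534) at D7, while the hub stood at 0.95 ± 0.24 (adjusted p = 0.151) and then 0.68 ± 0.24 (adjusted p = 0.246).

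Gins2, another GINS subunit, had the only call in which the LE was below the hub. At D4 it read 9.47 and 9.38 in the LE, 9.82 and 9.9 in the hub and 9.35 and 9.29 in control skin, so both hub arrays stood above the other 4. The LE was lower than the hub by 1.35-fold, a difference of -0.44 ± 0.10 (adjusted p = 0.0428). At D7 it read 8.79 and 8.9 in the LE, 8.6 and 8.54 in the hub and 8.45 and 8.27 in control skin, and the LE exceeded control by 0.49 ± 0.10 (adjusted p = 0.0122). A second, dimmer probe set gave -0.33 for the LE against the hub at D4 and -0.02 for the LE against control at D7, so the D7 call rests on 1 of 2 probe sets. The call against the hub failed in 10 of the 12 fits that left out 1 array. Cdc45, the third part of the active helicase, was not called, with LE differences of 0.01 and 0.37 and hub differences of 0.34 and 0.38.

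Of 6 polymerase and primase genes, 1 was called higher in the LE at D4 (8.3% of all genes) and 1 at D7 (9.25%). Prim2, the large primase subunit, read 9.32 and 9.03 in the LE, 9.03 and 8.69 in the hub and 8.32 and 8.54 in control skin at D4 and was higher in the LE by 0.74 ± 0.17 (adjusted p = 0.017). At D7 it read 7.62 and 7.49 in the LE, 7.37 and 7.53 in the hub and 7.46 and 7.11 in control skin, a difference of 0.27 ± 0.17 (adjusted p = 0.367). The D4 call of Prim2 was lost with the probe set of highest variance. Prim1, the catalytic primase subunit, read 8.89 and 8.71 in the LE, 9.34 and 9.11 in the hub and 8.84 and 8.67 in control skin at D4, with the hub highest and the LE difference at 0.05 ± 0.14 (adjusted p = 0.906). On the D7 arrays it read 7.7 and 7.76 in the LE, 7.79 and 7.55 in the hub and 7.36 and 7.15 in control skin, and the LE exceeded control by 0.48 ± 0.14 (adjusted p = 0.0416). Its second probe set gave LE differences of 0.47 at D4 and 0.14 at D7, neither called. The polymerase subunits Pola1, Pola2, Pold1 and Pole were not called, at 0.02 to 0.43 in the LE and -0.10 to 0.76 in the hub.

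The sliding clamp and most of its loader moved little in the LE. Pcna, the clamp, read 10.79 and 10.94 in the LE, 11.12 and 10.88 in the hub and 10.93 and 10.68 in control skin at D4. Its D7 levels were 10.18 and 10.22 in the LE, 10.21 and 10.20 in the hub and 10.15 and 9.94 in control skin. LE and control arrays overlapped at D4, and the differences were 0.06 ± 0.13 (adjusted p = 0.877) and 0.15 ± 0.13 (adjusted p = 0.526) in the LE. Rfc3, Rfc4 and Rfc5 of the clamp loader were at -0.02 to 0.44 in the LE with no call, though a second probe set of Rfc3 gave 0.78 and 0.94, uncalled. Rpa2, of the complex that coats single-stranded DNA, read 8.43 and 8.6 in the LE, 9.01 and 8.74 in the hub and 8.58 and 8.33 in control skin at D4 and 8.09 and 7.91 in the LE, 7.93 and 7.85 in the hub and 7.44 and 7.22 in control skin at D7. Its LE arrays lay within the range of control and hub at D4, at 0.06 ± 0.14 (adjusted p = 0.879), and above control at D7, at 0.67 ± 0.14 (adjusted p = 0.013). Fen1 and Lig1, which process and seal lagging strand fragments, had LE differences of 0.26 to 0.41 and no call. The Fen1 probe set was dim, at percentile 19.7 of the genes by mean level, so a change could be missed.

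Among chromatin genes Uhrf1, which recruits maintenance methylation to new DNA, was called at D4. It read 9.04 and 9.53 in the LE, 9.5 and 9.21 in the hub and 8.6 and 8.28 in control skin at D4 and was higher in the LE by 0.85 ± 0.23 (adjusted p = 0.0386). At D7 it read 9.13 and 9.02 in the LE, 8.68 and 8.55 in the hub and 8.64 and 7.94 in control skin, and the difference was 0.79 ± 0.23 (adjusted p = 0.0511). Chaf1b and Slbp, for histone deposition and histone mRNA, were at 0.24 to 0.37 in the LE and 0.10 to 0.48 in the hub, uncalled.

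None of the 4 G1/S regulators was called. Ccne1, which encodes cyclin E1, read 6.71 and 7.47 in the LE, 6.62 and 6.27 in the hub and 6.41 and 6.21 in control skin at D4. Its D7 values were 6.29 and 6.15 in the LE, 6.05 and 5.44 in the hub and 5.1 and 5.55 in control skin. LE arrays were above hub and control arrays on both days, and the differences from control were 0.78 ± 0.27 (adjusted p = 0.096) and 0.90 ± 0.27 (adjusted p = 0.0555). E2f1 was at 0.16 ± 0.18 (adjusted p = 0.699) in the LE at D4, followed by -0.15 ± 0.18 (adjusted p = 0.694) at D7. Its D4 hub difference was 0.58 ± 0.18 (adjusted p = 0.247). Ccnd1, for cyclin D1, was at 0.06 to 0.08 in the LE on the probe set used, while one of its other probe sets gave 0.53 at D7 (adjusted p = 0.0278 over all probe sets). Ccne2 was at 0.11 and 0.38 in the LE on a dim probe set, at percentile 2.04 of the genes by mean level, so a change could be missed.

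By the fold rule of the study's methods, more than 2-fold in each replicate, Gmnn and Rrm2 passed in the LE at D4 (2.26% of all genes) and Gins1, Gmnn, Mcm10 and Rrm2 at D7 (1.83%). In the hub Rrm2 passed at D4 (0.357%) and 0 members at D7. This rule sets each array against the control array of the same number and carries no p.

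The LE and the hub were also compared with each other. This sets cells enriched for the migrating margin against cells enriched for the ring in which proliferation was described. Neither sample is pure, so the comparison does not separate the 2 zones fully. At D4, 0 members were called higher in the LE (2.61% of all genes) and 1, Gins2, lower (2.15%). At an unadjusted p under 0.05 in limma, 2 members were higher, Rrm2 and Ccne1 (8.86%), and 5 lower, Mcm6, Gins2, Prim1, Rpa2 and E2f1 (7.46%). Both LE arrays were below both hub arrays for 13 members (18.5%) and above for 4 (25.2%). At D7 Rrm2 was called higher in the LE by 0.79 ± 0.14 (adjusted p = 0.0244) (1.33% of all genes) and 0 members lower (1.4%). At an unadjusted p under 0.05, 8 were higher, namely Orc1, Gmnn, Mcm4, Mcm5, Mcm10, Gins1, Gins2 and Rrm2 (8.48%), and 0 lower. Both LE arrays were above both hub arrays for 22 members (25.7%). The median difference between LE and hub was -0.10 at D4 and 0.17 at D7, against 0.03 and 0.01 over all genes. The D4 median was -0.35 between the arrays numbered 1 and 0.07 between those numbered 2, so its sign turned between them, and it was -0.01 without hub D4 replicate 1 and -0.21 without hub D4 replicate 2. The Rrm2 call was lost without any 1 of the 4 arrays compared.

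**Figure D4:**
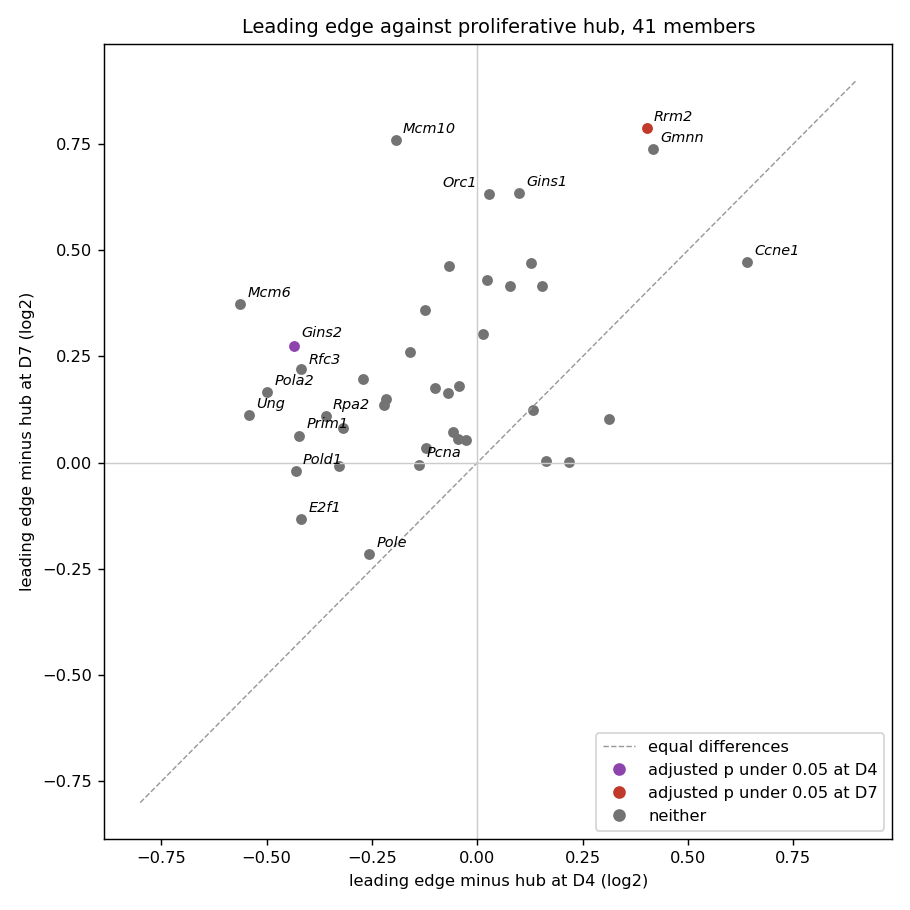
LE minus proliferative hub (log2) at D4 (x axis) and D7 (y axis) for the 41 members, with the line of equal differences. Points are differences of group means of 2 arrays, and 36 of the 41 lie above the line. Gins2 and Mcm6 are to the left of 0 at D4 and above 0 at D7.

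The LE minus hub difference was larger at D7 than at D4 in 36 of 41 members, the hub minus control difference smaller at D7 in 35, and the LE minus control difference larger at D7 in 20. These counts share arrays and were not set against the share over all genes, and the scale of the arrays differed between the days. A change of a difference with day therefore cannot be told apart from that change of scale. The change itself was tested as an interaction of region and day, and 0 members passed the adjusted threshold in limma in any of the 3. At an unadjusted p under 0.05, 7 members had a larger LE minus hub difference at D7 (2.32% of all genes), and these were Orc1, Mcm6, Mcm10, Gins2, Prim1, Rfc3 and Rpa2. The largest by p was Gins2, whose difference changed by 0.71 ± 0.15 (adjusted p = 0.637), and Mcm6 changed by 0.94 ± 0.24 (adjusted p = 0.735). For the LE against control 4 had a larger difference at D7, Mcm6, Gins2, Prim1 and Rpa2 (3.98%). For the hub against control 4 had a smaller one, Gins2, Pola2, Tk1 and E2f1 (2.08%). The replicates behind the hub at D4 differed, with hub D4 replicate 1 above replicate 2 in 36 of 41 members by a median of 0.27. Control D7 replicate 1 was above replicate 2 in 35 of 41, by a median of 0.26. Without control D7 replicate 1 the median LE minus control difference at D7 was 0.572, and without control D7 replicate 2 the hub median was 0.086.

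Related genes were counted from lists of the same pathway, to be read against the 8.3% (D4) and 9.25% (D7) of all genes called higher in the LE and the 0.222% and 0.591% in the hub. Of 26 other subunits of the replication machinery, 1 was called higher in the LE at D4, Dbf4, the activator of the Cdc7 kinase, at 1.24 ± 0.33 (adjusted p = 0.0336), a share below that of all genes. At D7 there were 7, among them Wdhd1 at 1.38, Dbf4 at 1.28 and Pole3 at 1.14, and 0 were lower on either day. The 7 fell to 4 without hub D4 replicate 1 or 2, LE D7 replicate 2 or control D7 replicate 1, to 2 without control D7 replicate 2 and to 1 without LE D7 replicate 1. Of 18 fork and S phase checkpoint genes, Clspn, the adaptor that activates Chk1, was called at D4 at 0.70 ± 0.13 (adjusted p = 0.00607). At D7 5 were called, with Exo1 at 1.07, Timeless at 1.04 and Rad18 at 1.01 the largest. Of 13 nucleotide genes 3 were called higher at D4, Cad, Samhd1 and Nme1, at 0.97, 0.89 and 0.49. At D7 5 were, led by Samhd1, Cad and Nme1 at 1.19, 1.15 and 0.95. Paics, of purine synthesis, was called lower on both days, at -0.44 and -0.43 (5.83% of all genes called lower at D4 and 5.37% at D7). Of 8 chromatin replication genes, Asf1b and Hat1 were called at D4, at 0.66 and 0.59, and Hat1 at D7 at 0.61. In the hub the calls in these lists were Dctd at D4, at 1.0 ± 0.17 (adjusted p = 0.0436), and Nme1 at D7, at 0.55 ± 0.10 (adjusted p = 0.0451).

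Among regulators of the transition there were calls in both directions in the LE, where 8.3% of all genes were called higher and 5.83% lower at D4, and 9.25% and 5.37% at D7. A list of 17 other G1/S genes held cyclins, kinases and E2F factors, and also Rb1, Rbl1 and Rbl2 of the Rb family, which restrains E2F. At D4, 4 of the 17 were called higher, with Rb1 at 1.07, Cks1b at 0.88 and Cdk6 at 0.80 the largest. Called lower were 3, Rbl2 at -1.13, Ccnd2 at -1.05 and Tfdp2 at -1.05. At D7 Cks1b, Cdk6 and Ccnd3 were higher, at 0.61, 0.54 and 0.51, and Ccnd2 and Tfdp2 lower, at -1.13 and -0.68. Of 16 cell cycle inhibitors and E2F repressors, the atypical repressors E2f7 and E2f8 were called higher on both days, and Btg2, Ccng2 and Btg1, with Fbxw7 at D7, lower. E2f7 read 7.38 and 7.66 in the LE, 5.79 and 5.32 in the hub and 4.59 and 4.65 in control skin at D4. On the D7 arrays it read 5.41 and 5.59 in the LE, 4.47 and 3.77 in the hub and 3.61 and 3.3 in control skin. The LE stood apart from the hub and control on both days, and exceeded control by 2.9 ± 0.23 (adjusted p = 6.64e-05) at D4, followed by 2.05 ± 0.23 (adjusted p = 0.000566) at D7. It also exceeded the hub, by 1.96 ± 0.23 (adjusted p = 0.00164) and then 1.38 ± 0.23 (adjusted p = 0.0178). E2f8 exceeded control in the LE by 1.5 ± 0.22 (adjusted p = 0.00186) and 1.33 ± 0.22 (adjusted p = 0.00398). Btg2, an antiproliferative gene, was lower, at -1.32 ± 0.19 (adjusted p = 0.00135) on D4 arrays, followed by -0.99 ± 0.19 (adjusted p = 0.00652) at D7. Against the hub Cdk6 was higher in the LE on both days, at 0.45 and 0.57, and Pole3 at D7, at 0.73. Tfdp2, Rbl2, Btg2, Ccnd2 and Paics were lower against the hub at D4, at -0.97, -0.95, -0.92, -0.78 and -0.61, and Ccng2 at D7, at -0.70.

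**Figure D5:**
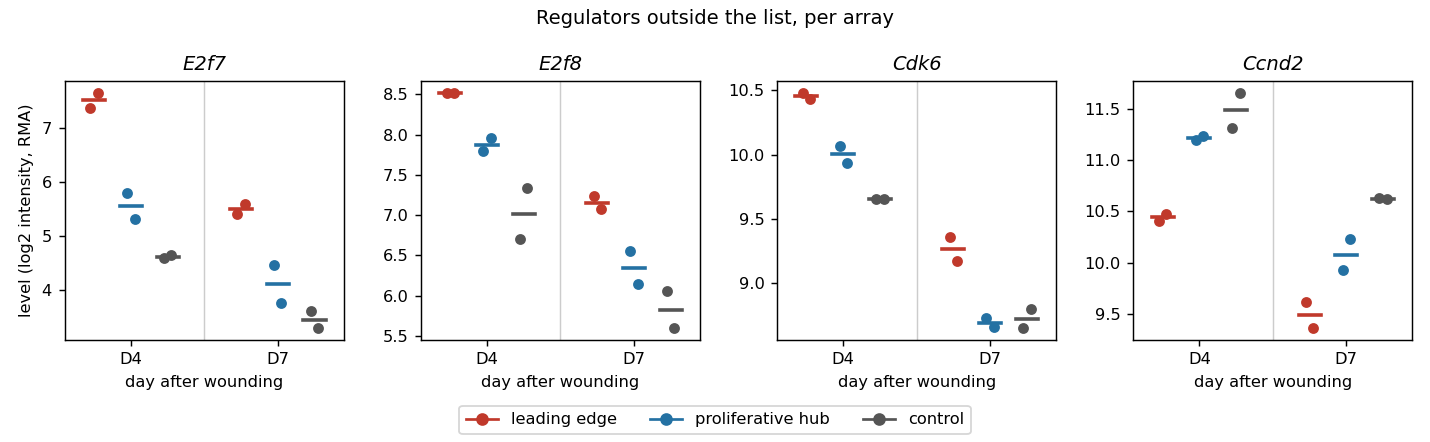
Level (log2 intensity after RMA, y axis, scaled per gene) of the E2F repressors E2f7 and E2f8, the kinase Cdk6 and the cyclin Ccnd2 on each of the 12 arrays at D4 and D7 after wounding. Points are arrays and short lines group means. The LE arrays are above control for E2f7, E2f8 and Cdk6 and below it for Ccnd2 on both days.

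G2/M and mitosis genes, which act after S phase, were counted beside the replication genes. Of 30, the LE gave 8 higher calls at D4 and 0 at D7 in limma, with 0 lower and 0 called in the hub on either day (over all genes the higher calls were 8.3% and 9.25% for the LE and 0.222% and 0.591% for the hub). At an unadjusted p under 0.05, 17 were higher in the LE at D4 (15.1% of all genes), 3 higher (16.5%) and 3 lower (10.7%) at D7, and 24 higher in the hub at D4 (6.9%) against 0 at D7 (8.28%). Without control D4 replicate 1, which was also high in melanocyte genes, the 8 calls became 0, and without control D4 replicate 2 they became 16. They became 1 without either LE D4 array. The largest at D4 were Cdca8 at 1.71 ± 0.41 (adjusted p = 0.0205), Ccnb2 at 1.48 ± 0.34 (adjusted p = 0.0181) and Bub1 at 1.45 ± 0.39 (adjusted p = 0.0351). At D7 these were at 0.61, 0.77 and 1.05. For the LE the median of the list was 0.93 at D4 but 0.01 at D7, and for the hub 0.96 but 0.07. Without control D4 replicate 1 the D4 medians of LE and hub were 0.43 and 0.45, and without control D4 replicate 2 they were 1.44 and 1.48. The D7 median of the LE was -0.54 between the arrays numbered 1 and 0.62 between those numbered 2. The replication genes, on the same arrays, had medians of 0.41 and 0.38 for the LE, with 0.54 and 0.28 for the hub, and the difference between the lists was not tested. For Cdca8, control D4 replicates 1 and 2 read 7.49 and 8.87.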

How the data were processed

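The 2 arrays for each of 6 groups (LE, proliferative hub and control skin at D4 and D7) were used. The authors had deposited log2 intensities made by RMA (background correction, quantile normalization, summary per probe set), with the software version not given in the sources used here. Of 45141 probe sets, 104 were controls, 28898 were paired with 1 gene in the platform annotation used here, 551 with several and 15588 with none. The last 2 kinds were left out. For genes with several probe sets, the one of highest average level was kept, which gave 17097 genes. The 41 members had 72 probe sets, and 23 members had more than 1.

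Moderated tests were made with limma 3.58.1 (R 4.3.3) from a linear model of all 6 groups, which has 6 residual degrees of freedom. Tests were two-sided, with Benjamini-Hochberg adjustment over all genes at 0.05, and every SE and adjusted p is from this fit (n = 2 arrays in a group), so the small number of arrays sets the precision. The script was tested on simulated data. The fold rule of the methods set each array against the same-numbered reference array. Promoter windows came from a RefSeq table (GRCm38.p6) and were searched on both strands in Python 3.11.15.

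The members and lists were chosen with earlier results of these data known. Values on every array are given for called members, for those that passed the fold rule and for the 2 members with the largest difference in a comparison with fewer than 2 calls. Of each related list, up to 3 called genes with the largest difference per comparison are named. Pcna was added after its values were seen. Alternatives covered the scaling, the probe set, dim genes, the prior, array weights, the arrays in the fit, a replicate block and a minimum change of 1.2-fold. One was chosen after seeing the data, leaving out both D4 arrays with high melanocyte genes.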

Additional observations from a re-analysis of the deposited data

How the results depend on the processing

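Of the 30 calls of members, 4 held in all 12 fits without 1 array (Gmnn and Rrm2 in the LE at D4, Mcm10 and Rrm2 in the LE at D7). Over the alternatives, 556 of 748 values of these calls kept their direction and their side of the threshold, 191 kept the direction only and 1 reversed, which was Gins2 in the LE at D7 at -0.0215 with its probe set of highest variance. For the LE against control at D4, the 12 members became 2 when a change of at least 1.2-fold was tested, 4 on the arrays of the day alone and 3 on the arrays of the 2 groups alone, and 3 to 13 without 1 array. At D7 the 14 became 7 with the 1.2-fold minimum and 4 to 16 without 1 array. For the hub at D4, the 1 member became 4 with a trended and robust prior, 4 without both D4 arrays with high melanocyte genes and 0 with the 1.2-fold minimum, on the arrays of the day alone and on the 2 groups alone, and 0 to 3 without 1 array. For the hub at D7, the 1 became 0 under all 3 scalings, with the probe set of highest variance, with each probe set by itself, with the 1.2-fold minimum, on the day alone and on the 2 groups alone, and 0 to 1 without 1 array. For the LE against the hub at D7, the 1 became 2 under all 3 scalings, with the trended and robust prior, with array weights, on the day alone, on the 2 groups alone and without both melanocyte-rich arrays, 0 with the 1.2-fold minimum, and 0 to 2 without 1 array. The 4 members past the fold rule became 13 without replicate 1 and 8 without replicate 2. The cause of these changes was not tested, except that single replicates and smaller fits leave fewer folds to meet or fewer degrees of freedom.

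Same-numbered arrays are not paired by the labels or methods, and the correlation of their deviations over all genes lay between 0.17 and 0.245 at D4 and between 0.00234 and 0.0666 at D7. Over the members alone it lay between -0.248 and 0.0892 at D4 and between -0.225 and 0.0091 at D7. With the replicate block, 3 members were called in the hub at D4 and 3 in the LE against the hub at D7, while Gins2 against the hub at D4, Mcm2 in the LE at D4 and Cdt1 in the LE at D7 lost their calls (adjusted p = 0.0607, 0.0734 and 0.062 in limma). Calls over all genes became 118 from 56 in the hub at D4. The 3 interactions kept 0 calls under every alternative run. Quantile normalization over all 12 arrays moved the share of calls that were higher from 58.7% to 48.6% in the LE at D4, from 63.3% to 50.7% at D7 and from 77.7% to 64.3% in the hub at D7, and no scaling changed the sign of a median of the members. The LE calls of Mcm2, Mcm3 and Uhrf1 at D4 and of Cdt1 at D7 were lost under all 3 scalings. A filter on dim genes removed Orc1, Cdc6, Fen1 and Ccne2.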
